A study of Mus musculus with 6 samples.

Results

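The 9 genes described here encode the heavy chains of major histocompatibility complex class I molecules and their common light chain. They were taken by symbol from a deposited table of 34724 genes. The members are 8 heavy chain genes, H2-K1, H2-D1, H2-Q4, H2-Q6, H2-Q7, H2-T22, H2-T23 and H2-M3, and B2m, which encodes the light chain β2-microglobulin. Each symbol matched 1 row. The samples were 3 libraries of the mouse line 2H-11, labelled tumor endothelial cells, and 3 of the mouse line SVEC4-10, labelled normal endothelial cells. Both lines carry the labels adult, C3H/HeJ strain, axillary lymph node and SV40 transformed, and no treatment is given for either. As each label rests on 1 cell line, an effect of tumor or normal origin and other line differences cannot be told apart. RNA molecules were read directly on a nanopore instrument, so that each read stands for 1 polyadenylated RNA molecule.

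A class I molecule on the cell surface consists of a heavy chain, the light chain and a short peptide, and most nucleated cells carry such molecules. H2-K1 and H2-D1 are the classical heavy chain genes, whose products show peptides from inside the cell to cytotoxic T cells and vary strongly between mouse strains. The Q, T and M genes are nonclassical and vary less, and some of their products are read by natural killer cells or by T cells of limited variety. Interferons raise the transcription of many of these genes through sites near the start of transcription that bind interferon regulatory factors, NF-κB and the NLRC5 complex.

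Total counts per library were between 3628400 and 16798666, with SVEC4-10 replicate 3 the largest. Levels are given in CPM, counts per 1000000 counts of the library, and each ± gives the SD among a line's 3 libraries (n = 3). No label tells whether replicate libraries go back to separate cultures, and the p-values cover the spread among libraries alone, which may be technical. Of 12 pan-endothelial markers, 10 were under 1 CPM in all 6 libraries and 6, among them Vwf and Erg, had no count. Pecam1 had 1 count and Cdh5 had 2 counts, all in 2H-11, so the defining endothelial transcripts were at or near 0 in both lines. The summed level of the endothelial markers, most of it from Egfl7 and Eng, was 12.2 to 19.2 CPM in 2H-11 and 2.81 to 4.13 CPM in SVEC4-10. Of 10 markers of antigen-presenting and other leukocytes, 8 were under 1 CPM in every library, including Ptprc, Cd74 and the class II genes H2-Aa, H2-Ab1 and H2-Eb1. Their sum was 4.09 to 5.84 CPM in 2H-11 and 3.63 to 6.06 CPM in SVEC4-10, most of it from the lysosomal protein gene Cd68. Of 8 markers of epithelium and mesothelium, 5 were tested, 4 were lower and 1 was higher in 2H-11, and Epcam and Cdh1 had no count. They summed to 57.8 to 72.4 CPM in 2H-11 and 1678 to 2722 CPM in SVEC4-10, where Upk3b and Msln held most of the sum, while Krt19 was higher in 2H-11 (339 against 4 counts). Of 8 markers of fibroblasts and mural cells, 6 were tested, 4 were higher and 1 was lower in 2H-11, and Lum and Rgs5 had no count. Their sums were 1541 to 2017 CPM and 1660 to 1924 CPM with Acta2 the largest part, but Pdgfrb had 417 counts in 2H-11 and 0 in SVEC4-10, and Dcn averaged 13.8 and 307 CPM. By the same test, given below, 16.2% of all genes tested were lower and 20.1% were higher in 2H-11. Krt8 and Upk3b passed the filter on low counts through SVEC4-10 alone, and Krt19 and Pdgfrb through 2H-11 alone. For each, that is the line where it was higher, which favours a call. The part of these marker lists in the class I results was not tested.

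The bases before the start of transcription are shown for 6 members that stand for the patterns described below. H2-K1, H2-T22 and B2m were lower in 2H-11. H2-M3 was higher in 2H-11. H2-Q6 and H2-Q7 are near-identical neighbours. H2-Q7 was lower in 2H-11, while H2-Q6 was not tested and had 16 counts in 2H-11 and 0 in SVEC4-10. The sequences are from RefSeq on GRCm38.p6, cover the 250 bases before the annotated start, read 5′ to 3′ on the strand of the gene, and come from the reference strain C57BL/6 and not from C3H/HeJ. Capitals mark matches, on either strand, to 1 of 2 interferon-type motifs. The longer motif reads GAAA, any 2 bases and GAAA, the core of the interferon-stimulated response element. The shorter reads GAA, any 2 bases and GAAA, and the 2 motifs can overlap.
H2-K1 (chr17:34000348-34000597, minus strand): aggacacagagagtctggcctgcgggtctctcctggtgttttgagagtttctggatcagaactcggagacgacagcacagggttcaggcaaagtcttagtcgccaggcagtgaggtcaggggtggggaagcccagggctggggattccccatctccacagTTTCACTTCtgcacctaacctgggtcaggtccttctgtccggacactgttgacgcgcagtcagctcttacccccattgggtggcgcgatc
H2-Q6 (chr17:35424600-35424849, plus strand): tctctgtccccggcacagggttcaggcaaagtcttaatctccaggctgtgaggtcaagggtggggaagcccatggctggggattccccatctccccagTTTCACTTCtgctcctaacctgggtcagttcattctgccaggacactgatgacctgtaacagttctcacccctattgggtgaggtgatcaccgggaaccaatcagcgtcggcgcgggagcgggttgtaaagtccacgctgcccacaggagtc
H2-Q7 (chr17:35438905-35439154, plus strand): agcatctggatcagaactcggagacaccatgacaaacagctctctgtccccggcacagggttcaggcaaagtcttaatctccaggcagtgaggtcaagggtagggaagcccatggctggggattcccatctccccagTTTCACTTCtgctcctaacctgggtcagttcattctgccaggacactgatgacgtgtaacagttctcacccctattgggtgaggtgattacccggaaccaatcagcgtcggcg
H2-T22 (chr17:36042743-36042992, minus strand): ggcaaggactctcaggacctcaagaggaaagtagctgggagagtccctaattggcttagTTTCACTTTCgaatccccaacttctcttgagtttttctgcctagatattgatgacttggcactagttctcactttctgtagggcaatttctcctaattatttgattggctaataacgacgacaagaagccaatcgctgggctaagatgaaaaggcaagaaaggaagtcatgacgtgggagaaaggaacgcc
H2-M3 (chr17:37269984-37270233, plus strand): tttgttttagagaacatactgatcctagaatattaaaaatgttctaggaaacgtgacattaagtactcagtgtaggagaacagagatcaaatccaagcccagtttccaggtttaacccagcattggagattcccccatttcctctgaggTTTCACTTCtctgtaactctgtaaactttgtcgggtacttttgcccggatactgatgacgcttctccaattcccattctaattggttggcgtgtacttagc
B2m (chr2:122147437-122147686, plus strand): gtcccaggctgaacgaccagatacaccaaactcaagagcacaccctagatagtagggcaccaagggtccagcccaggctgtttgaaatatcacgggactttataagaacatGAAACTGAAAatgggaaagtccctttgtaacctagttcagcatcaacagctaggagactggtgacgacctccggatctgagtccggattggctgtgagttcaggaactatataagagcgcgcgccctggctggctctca

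All 9 members were found in the RefSeq promoter table, and each of the 9 windows held 1 of these motifs. Among all 32851 windows of the same length, 8.82% held either motif. The longer motif was present in 3 members, H2-T22, H2-T23 and B2m, and in 2.98% of all windows. The shorter motif was present in the other 6 members and in 6.31% of all windows. In H2-K1 it lay at bases -90 to -82 and in H2-M3 at bases -101 to -93, counted back from the start, in both as TTTCACTTC on the strand of the gene. The motif TGACG, found in X2 boxes, was searched on both strands and was present in 7 members and in 17.8% of all windows. H2-Q6 and H2-T23 had no match to it. A loose NF-κB motif, GGG, any 5 bases and CC on either strand, was present in 8 members but also in 45.8% of all windows. The form it takes in H2-Q7, GGGGATTCCC, was searched on both strands after the sequences had been seen. It was present in H2-K1, H2-D1, H2-Q6 and H2-Q7 and in 0.0852% of all windows. These genes share ancestry, so their windows are not independent. The windows of H2-Q6 and H2-Q7 were identical at 97.6% of 210 aligned bases, those of H2-K1 and H2-D1 at 89.5% of 190. A match is a description of the letters and says nothing of binding in these cells.

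The class I genes were lower in 2H-11 with the exception of H2-M3 and H2-Q6. Of the 9 members, 8 had enough counts to be tested, 7 of them were lower and 1 was higher (quasi-likelihood test in edgeR, with p-values adjusted over 13187 genes by Benjamini-Hochberg and a threshold of 0.05). Among all genes tested, 16.2% were lower, 20.1% were higher and 36.2% were called in either direction. The members were chosen with earlier results of these data known. The median log2 fold change, 2H-11 over SVEC4-10, was -1.65 over the tested members and 0.003 over all genes tested. In bulk RNA, fewer cells that express a gene and less of its RNA per cell cannot be told apart. H2-Q4 passed the filter on low counts through SVEC4-10 alone, and H2-Q6 did not pass it. No member had overlapping libraries. In 7 members every 2H-11 library lay below every SVEC4-10 library, against 18.8% of genes tested, and in 2, the untested H2-Q6 among them, it lay above, against 28% of genes tested. Each library is shown in the plot of members by library.

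**Figure D1:**
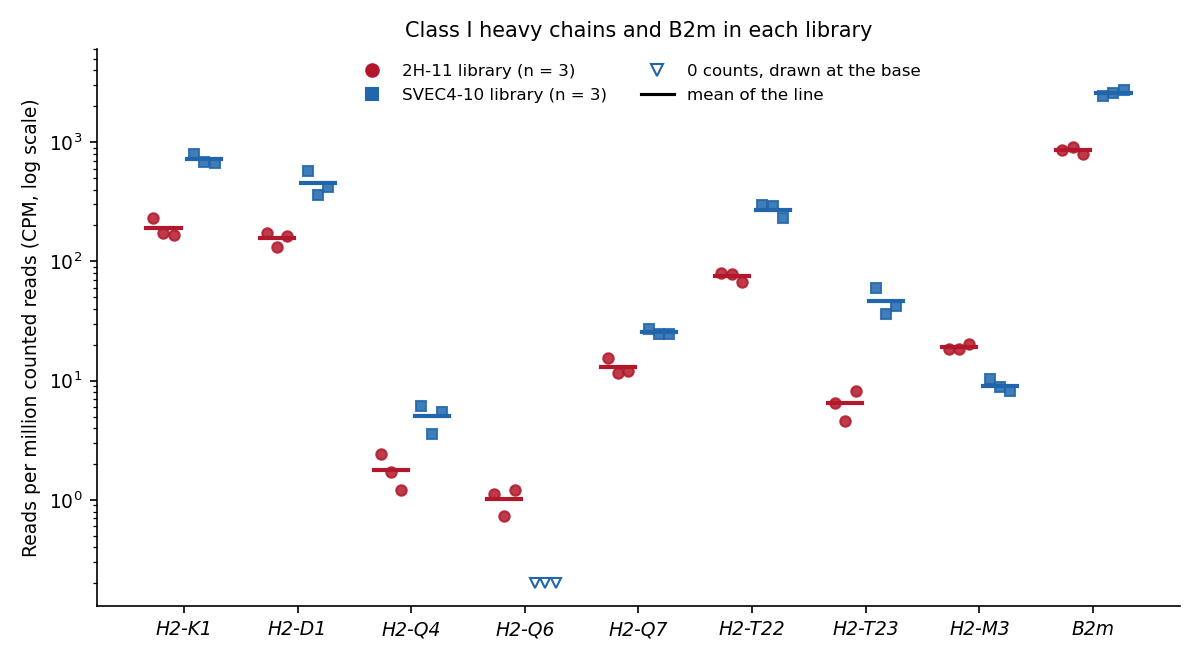
Levels of the 9 members in each library, in CPM on a log axis, with circles for the 3 libraries of 2H-11, squares for the 3 of SVEC4-10 and a bar at the mean of each line. Open triangles at the base stand for 0 counts of H2-Q6 in SVEC4-10, and the 2 sets of points are apart for each gene.

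The light chain was the most abundant member in both lines. B2m (ENSMUSG00000060802, chromosome 2, 122147686 to 122153083 in GRCm38, GENCODE M21) stood at 859, 908 and 793 CPM in 2H-11 replicates 1 to 3. In SVEC4-10 replicates 1 to 3 it stood at 2433, 2555 and 2724 CPM. The libraries within a line were close, and the lowest SVEC4-10 library was far above the highest 2H-11 library. B2m was 3.22-fold lower in 2H-11 (95% interval 2.59 to 4.02, log2 fold change -1.69, SE 0.15, adjusted p = 6.9e-08).

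Of the classical heavy chains, H2-K1 (ENSMUSG00000061232, chromosome 17, 33996017 to 34000347) was at 230, 173 and 167 CPM in 2H-11. In SVEC4-10 it was at 799.8, 677 and 667 CPM. Replicate 1 was the highest of its line in both lines, and the lines stayed apart. H2-K1 was 4.01-fold lower in 2H-11 (95% interval 3.14 to 5.13, log2 fold change -2.00, SE 0.17, adjusted p = 2.86e-08).

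The second classical gene, H2-D1 (ENSMUSG00000073411, chromosome 17, 35262730 to 35267499), was at 174, 131 and 164 CPM in 2H-11. In SVEC4-10 it was at 568, 363 and 422 CPM, so that the spread within this line was wider than for H2-K1. H2-D1 was 3.05-fold lower in 2H-11 (95% interval 2.35 to 3.98, log2 fold change -1.61, SE 0.18, adjusted p = 1.2e-06). In GENCODE M21 the coding sequences of H2-K1 and H2-D1 are identical at 91.5% of aligned bases. Both genes differ between strains and the genome builds named for this study are those of C57BL/6, so the split of reads between their rows is uncertain.

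The T genes lie together on chromosome 17. H2-T22 (ENSMUSG00000056116, 36037128 to 36042747) encodes a heavy chain that needs no peptide and is recognised by some γδ T cells. It was at 80.2, 78.9 and 67.5 CPM in 2H-11 and at 295, 289 and 231 CPM in SVEC4-10. Replicate 3 was the lowest in each line. H2-T22 was 3.84-fold lower in 2H-11 (95% interval 2.98 to 4.96, log2 fold change -1.94, SE 0.18, adjusted p = 7.58e-08).

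H2-T23 (ENSMUSG00000067212, 36029773 to 36032855) encodes the heavy chain of Qa-1, a ligand of inhibitory receptors on natural killer cells. It was at 6.51, 4.63 and 8.24 CPM in 2H-11 and at 60.3, 36.4 and 42.4 CPM in SVEC4-10. Libraries of one line differed by more in this gene than in B2m, and the lines remained far apart. H2-T23 was 7.45-fold lower in 2H-11 (95% interval 5.07 to 10.96, log2 fold change -2.90, SE 0.26, adjusted p = 8.82e-08), the largest fold among the members tested.

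The Q genes, whose products include the Qa-2 antigens, were at the lower end of the heavy chain levels. H2-Q7 (ENSMUSG00000060550, chromosome 17, 35439155 to 35443773) was at 15.4, 11.7 and 12.0 CPM in 2H-11 and at 27.3, 24.8 and 24.8 CPM in SVEC4-10. All SVEC4-10 libraries were above all 2H-11 libraries. H2-Q7 was 2.09-fold lower in 2H-11 (95% interval 1.51 to 2.90, log2 fold change -1.06, SE 0.22, adjusted p = 0.00102), the smallest fold among the 7 lower members.

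H2-Q4 (ENSMUSG00000035929, chromosome 17, 35379617 to 35385290) had 13, 7 and 7 counts in 2H-11, or 2.42, 1.71 and 1.20 CPM. In SVEC4-10 it had 26, 13 and 92 counts, or 6.08, 3.58 and 5.48 CPM. These low counts leave a wide interval. H2-Q4 was 3.06-fold lower in 2H-11 (95% interval 1.73 to 5.43, log2 fold change -1.61, SE 0.39, adjusted p = 0.00328). It passed the filter on low counts through SVEC4-10 alone, the line where it is higher, which favours a call of lower. In the edgeR fit with no filter on low counts H2-Q4 was lower as well (log2 fold change -1.69, adjusted p = 0.000582).

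H2-Q6 (ENSMUSG00000073409, chromosome 17, 35424850 to 35430055) went the other way at very low counts. It had 6, 3 and 7 counts in the 2H-11 libraries and 0 in each SVEC4-10 library, although SVEC4-10 held more counts in all. In SVEC4-10, a count of 0 in 24705490 sets an upper limit of 0.121 CPM, taken as 3 counts over the line, for counting error only. The 16 counts of H2-Q6 in 2H-11 gave a level 8.61 times this limit, and the counting error of the 16 is not included. Without SVEC4-10 replicate 3, the deepest library, the level was 2.76 times the limit. In an edgeR fit with no filter on low counts it was called higher (adjusted p = 0.000342).

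H2-Q6 and H2-Q7 are identical at 95.4% of aligned coding bases, so reads of one can be counted in the row of the other. H2-Q6 took 16 of the 217 counts of this pair in 2H-11, or 7.37% (exact 95% interval 4.27 to 11.7, counting error only). In SVEC4-10 it took 0 of 624, which the exact interval extends to 0.589%. Its share was 6.74%, 5.88% and 9.09% in the 2H-11 replicates. Summed over H2-Q4, H2-Q6 and H2-Q7, which does not depend on how reads were divided among these rows, the Q genes were lower in 2H-11 (log2 fold change -1.04, SE 0.22, adjusted p = 0.000882). Their coding sequences are also identical to those of H2-K1 and H2-D1 at 88.2% to 90.6% of aligned bases. Whether reads of these more abundant genes were counted in the Q rows was not tested. The genome builds are those of C57BL/6 for the Q rows too, while both lines are labelled C3H/HeJ. What the Q rows hold in that strain is therefore uncertain.

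H2-M3 (ENSMUSG00000016206, chromosome 17, 37270220 to 37274484), which presents N-formylated peptides of bacteria and mitochondria, was the tested member that was higher in 2H-11. It was at 18.4, 18.5 and 20.3 CPM in 2H-11 and at 10.3, 8.82 and 8.21 CPM in SVEC4-10. Both lines were tight, and the lowest 2H-11 library was above the highest SVEC4-10 library. H2-M3 was 1.99-fold higher in 2H-11 (log2 fold change 0.99, 95% interval 0.48 to 1.50, SE 0.24, adjusted p = 0.00323). Its coding sequence is identical to those of the other heavy chain members at 72.4% to 73.9% of aligned bases, while pairs among those others share 74.3% or more. Its promoter window, shown above, holds the same TTTCACTTC as those of H2-K1, H2-D1, H2-Q4, H2-Q6 and H2-Q7. The part of this motif in the levels was not tested.

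**Figure D2:**
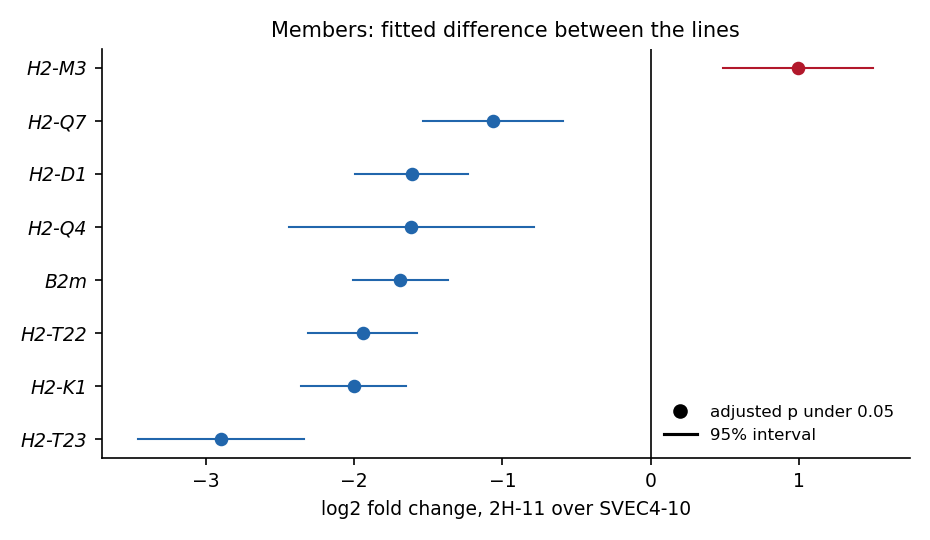
Fitted log2 fold change of the 8 tested members, 2H-11 over SVEC4-10, with 95% intervals from the edgeR fit; filled points passed an adjusted p of 0.05. H2-M3 lies at 0.99 on the side of 2H-11, and the other 7 lie between -1.06 for H2-Q7 and -2.90 for H2-T23.

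Summing the 8 heavy chain rows removed the question of how reads were split among them. The summed heavy chains were at 528, 420.4 and 442 CPM in 2H-11 and at 1767, 1402 and 1401 CPM in SVEC4-10. They were 3.50-fold lower in 2H-11 (95% interval 2.78 to 4.41, log2 fold change -1.81, SE 0.16, adjusted p = 5.06e-08), beside 3.22-fold for B2m.

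Ratios within a library do not depend on library scaling, and 8 were computed, with permutation p-values adjusted over the 8. The counts of the heavy chains over those of B2m were 0.614, 0.463 and 0.557 in 2H-11. In SVEC4-10 they were 0.727, 0.549 and 0.515, so that the lines overlapped. The mean ratio was 0.545 ± 0.0765 in 2H-11 and 0.597 ± 0.114 in SVEC4-10 (two-sided exact permutation test, n = 3 and 3, p = 0.70, adjusted p = 0.70). The log2 difference, 2H-11 minus SVEC4-10, was -0.124, and without SVEC4-10 replicate 1 it was 0.0264, so its sign rested on that library. With 3 libraries against 3 this test cannot go below 0.10, and it does not show that the ratios are alike.

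The make-up of the heavy chain counts is given as shares of their sum. The shares were not tested, and the share of 1 gene also moves when the other genes change. H2-K1, the largest, held 43.6%, 41.1% and 37.8% in 2H-11 and 45.3%, 48.3% and 47.6% in SVEC4-10, with no overlap. H2-D1 held 33.8% ± 3.09 and 29.4% ± 3.20, with overlapping libraries. H2-K1 and H2-D1 together held 74.6% ± 2.09 of the heavy chain counts in 2H-11 and 76.4% ± 1.97 in SVEC4-10, with overlapping libraries. H2-T22 held 16.4% ± 2.04 and 17.9% ± 2.31. H2-M3 held 4.16% ± 0.589 in 2H-11 and 0.599% ± 0.0261 in SVEC4-10. Its own fitted level was 1.99-fold higher in 2H-11, while those of H2-K1, H2-D1 and H2-T22 were lower. H2-Q7 held 2.81% ± 0.104 and 1.70% ± 0.129, and H2-T23 held 1.40% ± 0.409 and 3.01% ± 0.409.

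Relative to H2-K1 of the same library, H2-M3 was at 0.0800, 0.107 and 0.121 in 2H-11 and at 0.0129, 0.0130 and 0.0123 in SVEC4-10, a 7.96-fold higher ratio in 2H-11. The ratio of H2-Q7 to H2-K1 was 1.91-fold higher in 2H-11, that of H2-D1 to H2-K1 was 1.33-fold higher, and that of H2-T23 to H2-K1 was 1.90-fold lower. These 4 ratios did not overlap between the lines, and each had p = 0.10, the smallest that the exact permutation test allows here, and an adjusted p of 0.20. The ratio of H2-T22 to H2-K1 was 0.403 ± 0.0541 in 2H-11 and 0.381 ± 0.0412 in SVEC4-10 (exact permutation p = 0.60, adjusted p = 0.686). That of H2-Q4 to H2-K1 overlapped as well (exact permutation p = 0.30, adjusted p = 0.48).

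**Figure D3:**
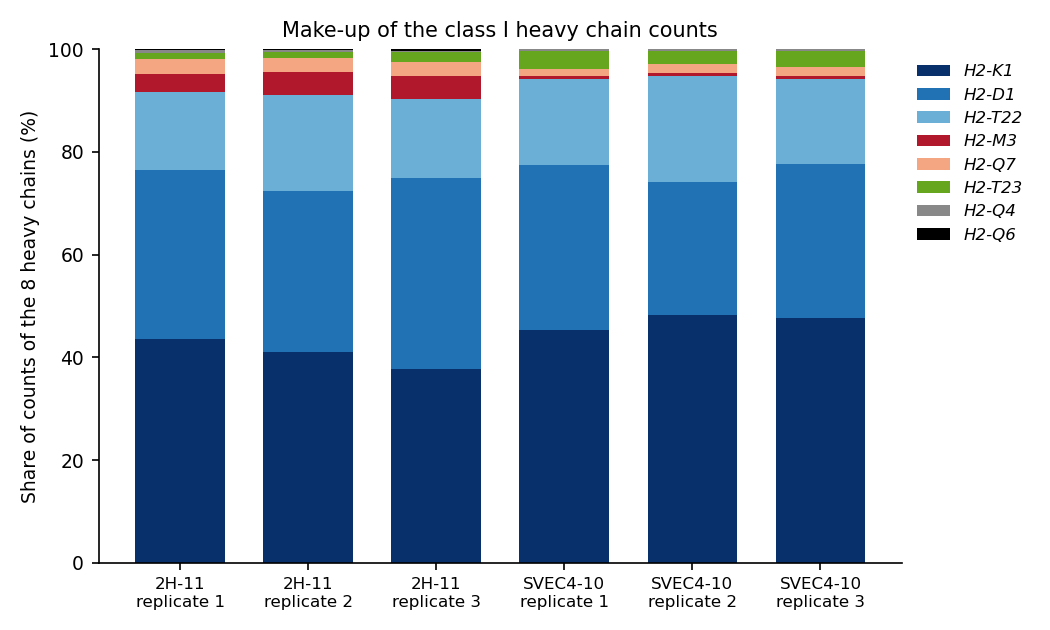
Share of each heavy chain gene in the summed counts of the 8 genes, in percent, with 1 stacked bar for each library. H2-K1, H2-D1 and H2-T22 fill most of each bar; the band of H2-M3 holds 3.49% to 4.59% in 2H-11 and 0.582% to 0.629% in SVEC4-10.

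The order of the members was set by levels per kilobase of the principal transcript. As each read stands for 1 RNA molecule, CPM itself counts molecules, and division by length raises short transcripts such as that of B2m. In CPM, B2m averaged 853.5 and H2-K1 190 in 2H-11, and they averaged 2571 and 714.6 in SVEC4-10. On the scale of CPM per kilobase, B2m stood at 992 ± 67.4 in 2H-11 and 2989 ± 170.0 in SVEC4-10, ahead of H2-K1 at 117 ± 21.6 and 441 ± 45.7. H2-D1 and H2-T22 came next in both lines, at 74.4 ± 10.6 and 42.9 ± 3.98 in 2H-11 and at 215 ± 50.3 and 154 ± 19.9 in SVEC4-10. The order then changed between the lines. In 2H-11 it ran H2-M3, H2-Q7, H2-T23, H2-Q4 and H2-Q6, from 13.3 ± 0.719 down to 0.487 ± 0.120. In SVEC4-10 it ran H2-T23, H2-Q7, H2-M3 and H2-Q4, from 31.5 ± 8.45 down to 2.81 ± 0.726, with H2-Q6 at 0. No neighbours in either order had overlapping libraries on this scale. CPM not divided by length gave the same order of means in both lines, but in 2H-11 the libraries of H2-K1 and H2-D1 then overlapped, and those of H2-Q4 and H2-Q6 met at 1.20 CPM.

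The other genes of the class I pathway were lower or did not pass the test. The list held 20 genes for peptide transport, loading and trimming, the immunoproteasome and the transcription of class I genes. Of these, 19 were tested, 8 were lower in 2H-11 and 0 were higher in edgeR. Among all genes tested, 16.2% were lower and 20.1% were higher. At an unadjusted p under 0.05 the count of higher listed genes was 0 as well. On the same libraries, DESeq2 and limma-voom each called 8 listed genes lower and 0 higher. The list was chosen with earlier results of these data known, so these counts are a description only. The median log2 fold change over the 19 was -0.24, beside 0.003 over all genes tested. Psme1, a subunit of the proteasome activator PA28, was at 81.7, 78.2 and 77.1 CPM in 2H-11 and at 295.7, 298 and 283 CPM in SVEC4-10, with no overlap. It averaged 79.0 ± 2.40 CPM over the 2H-11 libraries against 292 ± 8.11 CPM over those of SVEC4-10, 3.95-fold lower (adjusted p = 2.58e-08). Among the other genes that passed as lower, 6 differed by 1.57-fold to 5.92-fold. These were the peptide transporter subunit Tap1, tapasin (Tapbp), which bridges it to the heavy chain, the trimming enzyme Erap1, the proteasome subunits Psmb9 and Psmb10, and Psme2. Tap2, the partner of Tap1, had levels of 9.08 ± 3.30 and 10.7 ± 3.6 CPM in 2H-11 and SVEC4-10 with overlapping libraries and missed the threshold (log2 fold change -0.30, 95% interval -0.97 to 0.36). Calr, a chaperone of folding heavy chains and the most abundant gene not called, was at 799.6 ± 119 and 699 ± 88.9 CPM (log2 fold change 0.10, 95% interval -0.225 to 0.43, adjusted p = 0.653). Nlrc5, a transactivator of class I genes named here after its values were seen, was not tested. It had 9 counts in 2H-11 and 35 in SVEC4-10, at 0.606 ± 0.228 and 1.48 ± 0.156 CPM, with no overlap between the lines. In the edgeR fit with no filter it did not pass (log2 fold change -1.43, adjusted p = 0.0956).

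**Figure D4:**
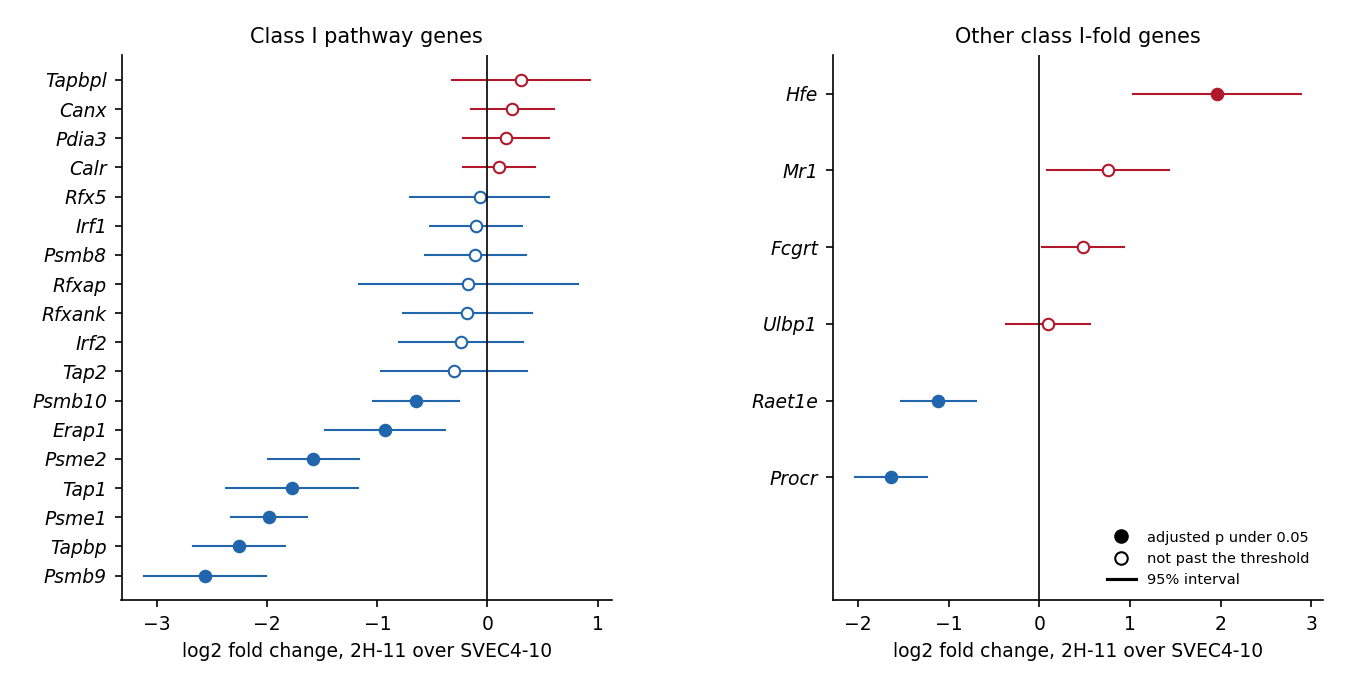
Fitted log2 fold change, 2H-11 over SVEC4-10, with 95% intervals, for 18 of the 19 tested class I pathway genes and for 6 tested class I-fold genes that are no members; filled points passed an adjusted p of 0.05. The plotted pathway genes that passed lie below 0, from -0.65 for Psmb10 to -2.57 for Psmb9, while Hfe lies at 1.96 among the class I-fold genes; H60b is left out because it had 1 count in 2H-11.

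Genes with a class I fold outside the members went both ways. Of 19 listed genes, 18 were in the table, 7 were tested, 3 were lower in 2H-11 and 1 was higher. The shares among all genes tested were 16.2% lower and 20.1% higher. This list, too, was chosen with earlier results of these data known. Without SVEC4-10 replicate 3, 2 of the listed genes were lower, since H60b was then not tested. Procr, the endothelial protein C receptor, averaged 28.1 ± 2.64 CPM in 2H-11 and 82.1 ± 6.03 CPM in the other line, 3.12-fold lower (adjusted p = 1.47e-06). Raet1e, a ligand of the activating receptor NKG2D, had means of 40.3 ± 5.55 and 81.8 ± 10.4 CPM and was 2.17-fold lower (adjusted p = 0.00018). H60b, another such ligand, was read 66 times in SVEC4-10 and 1 time in 2H-11, and the ratio of summed CPM was 40.9 (exact 95% interval for counting error only, 7.09 to 1639). The edgeR fit called it lower (adjusted p = 2.81e-05), but it passed the filter through SVEC4-10 alone, the line where it is high. With 2H-11 replicate 3 left out, which had the only read of that line, 2H-11 had 0 counts. The level of H60b in SVEC4-10 was then 8.44 times the limit set by 3 counts in 2H-11, with its own counting error not included. With 2H-11 replicate 1 left out the ratio was 26.5. Hfe, which takes part in iron sensing, averaged 4.59 ± 1.02 and 1.19 ± 0.649 CPM, 3.89-fold higher in 2H-11 (adjusted p = 0.00169), and passed the filter through 2H-11 alone. The liver-type heavy chain H2-Q10 and the genes H2-Q2, H2-T3 and H2-M2 had no count in any library.

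Among the untested rows 2 more T genes differed in opposite directions; they are named after their values were seen. H2-T24 (chromosome 17, 36005695 to 36020560) had 3 counts in 2H-11 and 54 in SVEC4-10, and the ratio was 11.2 (exact 95% interval for counting error only, 3.62 to 55.8) in the direction of its neighbour H2-T23. H2-T10 (chromosome 17, 36115876 to 36121465), whose coding sequence is identical to that of H2-T22 at 96.9% of aligned bases, had 20 counts in 2H-11 and 1 in SVEC4-10. The ratio was 32.3 (exact 95% interval for counting error only, 5.16 to 1338) in the direction of H2-Q6. SVEC4-10 replicate 3 held the single count. Without that library, the level of H2-T10 in 2H-11 was 3.44 times the limit set by 3 counts in SVEC4-10, with its own counting error not included. H2-T10 took 20 of 1168 counts of the pair with H2-T22 in 2H-11, or 1.71% (exact 95% interval for counting error only, 1.05 to 2.63). In SVEC4-10 it took 1 of 6195, or 0.0161% (counting error only, 0.000409 to 0.0899). Whether the rows of H2-Q6 and H2-T10 hold transcripts of those genes or reads of H2-Q7 and H2-T22 was not tested. GENCODE M21 lists H2-T10 as a polymorphic pseudogene.

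The pattern of B2m was set against 6742 other genes with an Ensembl identifier, a mean of 10 CPM or more and no predicted-model symbol. Likeness was the root mean square difference between profiles of log2(CPM + 1) over the 6 libraries, each centred on its own mean. The nearest 5 were Lmo4, a LIM-domain cofactor (0.0446), Cyb5a (0.0538), the lysosomal protease gene Ctsl (0.0615), Mitd1 (0.0906) and Procr (0.110). Among the members, H2-T22 was at 0.201 from B2m, H2-K1 at 0.253, H2-D1 at 0.280, H2-T23 at 0.646 and H2-M3 at 1.3. Ctsl, for example, was at 783, 833 and 685 CPM in 2H-11 and at 2389, 2214 and 2478 CPM in SVEC4-10. These distances describe 6 libraries of 2 lines and rest mostly on the difference between the lines.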

How the data were processed

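Direct RNA libraries (kit SQK-RNA002, 1 ug of total RNA, per the labels' protocols) of 2H-11 and SVEC4-10, 3 each, were compared. The authors deposited 1 table with read counts per gene and library and the same counts as CPM; genome builds mm10 and GRCm38 are named in the submitters' processing notes. On the aligner, the counter, the annotation and the use of strand, nothing is given in the sources used here. Lines without a gene, 13 in number and broken, were dropped.

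The counts of all genes were fitted with edgeR 4.0.16 in R 4.3.3 (filterByExpr, minimum count 10, TMM scaling, quasi-likelihood test, line as the only term), with Benjamini-Hochberg adjustment over 13187 genes and a threshold of 0.05; the fit was tested on simulated data. Intervals are 95% and come from the fit's SE, or cover counting error only where said. Ratios were compared with exact permutation tests (scipy 1.17.1). Places and transcripts are from GENCODE M21, coding sequences were aligned with Biopython 1.88, and promoters are from RefSeq. The members and lists were chosen with earlier results of these data known. Named genes were all members, from the pathway list the 2 called genes with the smallest p in each direction and the most abundant gene not called, from the class I-fold list up to 4 called genes, and the 5 genes nearest to B2m; the values of 1 pathway gene are not reported here. Alternatives were a replicate block, DESeq2 1.42.0, limma-voom (limma 3.58.1), relative log expression size factors, scaling by library size only, testing all rows with a count, requiring 20 counts in 3 libraries, a robust dispersion, thinning to the smallest library, summed paralog rows, and leaving out each library.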

Additional observations from a re-analysis of the deposited data

How the results depend on the processing

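All 119 refitted fold changes of the 8 tested members kept their direction and stayed past the threshold. Their ranges over the alternatives, on the log2 scale, were -2.17 to -1.91 for H2-K1, -1.77 to -1.50 for H2-D1, -1.93 to -1.40 for H2-Q4, -1.21 to -0.97 for H2-Q7, -2.09 to -1.84 for H2-T22, -3.14 to -2.73 for H2-T23, 0.86 to 1.08 for H2-M3 and -1.81 to -1.59 for B2m. H2-Q4 could not be fitted under the filter of 20 counts in 3 libraries. Without a filter 2 members were higher in 2H-11 in place of 1, since H2-Q6 was then tested (adjusted p = 0.000342). Leaving out single libraries moved the log2 difference of the heavy chain to B2m ratio between -0.223 and 0.0264, the latter without SVEC4-10 replicate 1. With the replicate block 7 members were lower and 1 was higher, 4461 genes were called, and the summed heavy chains were at a log2 fold change of -1.81 (adjusted p = 4.64e-07); the block changed no call of a member. Same-numbered libraries of the lines did not deviate together (correlations -0.018 to 0.051), and 2 of 6 libraries correlated best with their own number. With all Q rows and both T rows summed, 5 of the resulting class I rows were lower. The count of lower pathway genes was 7 to 8 over the alternatives, the 7 without 2H-11 replicate 2, where Psmb10 missed the threshold (adjusted p = 0.0622). That of lower class I-fold genes was 2 to 4. It was 2 without SVEC4-10 replicate 3, with 20 counts in 3 libraries and after thinning, where H60b was not tested, and 4 without a filter, without 2H-11 replicate 2 and without SVEC4-10 replicate 2, where H2-T24 was called. Hfe was not tested with 20 counts in 3 libraries. Depth limits what can be said of H2-Q6, H2-T10, H2-T24 and H60b, which rest on a few counts.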
